A study of Callithrix jacchus and Rattus norvegicus and Loxodonta africana with 31 samples.

Results

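Liver gene expression was compared between the common marmoset (Callithrix jacchus, a New World monkey), the rat (Rattus norvegicus) and a wallaby (Notamacropus eugenii, a marsupial) by setting the rank of each gene within 1 species' liver beside its rank in the others. The series holds 31 RNA-seq samples: 14 from the marmoset, 12 from the rat, 2 from the wallaby and 3 from the elephant. The 5 liver libraries were 1 female and 1 male marmoset, 1 female and 1 male rat and 1 male wallaby, all made from polyadenylated RNA. The series was collected to study the genes of the Y chromosome, so the liver served there as a somatic tissue. The labels give no treatment, strain or age, and each library of a species and sex is labelled individual 1, so the wallaby liver is 1 animal and the marmoset and rat livers are 1 animal of each sex. A difference between the libraries of a species can therefore be one of sex, animal or preparation, which cannot be told apart.

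Genes were matched by symbol, ignoring case, and only autosomal genes with a symbol used once in their table were kept: 16378 of 19681 genes in the marmoset table, 16720 of 20486 in the rat table and 12071 of 13892 in the wallaby table. Of these, 5252 were found in all 3 tables, and they are called the joined genes here. The marmoset table limits this number, since 11781 of its genes carry a placeholder name or no name. The unit is FPKM: the fragments assigned to a gene, divided by its transcript length in kilobases and scaled to the library's mapped fragments. The values stand in 1 table per species, and no scale common to the tables is given in the sources used here. Each gene was therefore given a percentile rank among the joined genes within each liver, from its mean log2(FPKM + 1), and no test was made between species. Where several libraries are listed, the female comes before the male.

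The mammalian liver is built mostly of hepatocytes, which secrete most plasma proteins, turn ammonia into urea, release glucose, burn and assemble lipids, make bile acids and modify foreign compounds. Between the hepatocytes lie the sinusoids, lined by a specialised endothelium and patrolled by resident macrophages, the Kupffer cells, with stellate cells behind the lining. Hepatocyte genes are held at a high level by a small network of transcription factors, of which HNF4A is the best known.

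The 5 libraries bore the marks of liver. The 4 joined hepatocyte markers (AHSG, APOB, CPS1 and TAT) had a median percentile of 99.9 in the marmoset, 99.4 in the rat and 99.7 in the wallaby. The sequencing depth is unknown, because the tables hold no counts. The median FPKM over the joined genes was 3.88 and 3.89 in the marmoset, 2.17 and 2.04 in the rat and 5.43 in the wallaby. The FPKM at percentile 90 was 32.5 in the female and 47.1 in the male marmoset, and 26.3 and 32.0 in the rats. The upper part of the distribution thus stood higher in the males, and male FPKM above female FPKM is read against that. Between 439 and 822 of the joined genes were listed at 0 in a liver library, the most in the male rat. A listed 0 is not always an absence of RNA. ALB, the gene of albumin, was listed at 0 in all 4 marmoset and rat livers. In the male marmoset FGA, FGB, FGG, HP and SERPINA1, which encode fibrinogen chains, haptoglobin and alpha-1-antitrypsin, were listed at 0, while the female stood at 5338, 7193, 8495, 15562 and 13492 FPKM. In all, 6 marmoset and 10 rat genes were at 0 in 1 liver and at 100 FPKM or more in the other. FGA was the 1 joined gene among them.

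The order of genes in liver was similar across the 3 species but clearly less so than between 2 animals of a species. Over the 5252 joined genes, Spearman's rho was 0.931 between the marmoset livers and 0.964 between the rat livers. Between species means it was 0.796 for marmoset and rat, 0.787 for rat and wallaby and 0.762 for marmoset and wallaby. Between single libraries of different species it was 0.739 to 0.784. These values describe genes within a few libraries, which share gene models and length scaling within a table, and genes are not replicates. The typical gene moved little: the median absolute difference in percentile was 5.65 points within the marmoset and 3.54 within the rat, against 8.85 to 10.8 points between single libraries of different species. A large shift was rare everywhere. Genes at least 50 points apart numbered 17 (0.324%) between the marmoset livers and 6 (0.114%) between the rat livers. Between single libraries of different species they numbered 140 to 181 (2.67% to 3.45%). Between species means they numbered 143, 147 and 143, or 2.72% to 2.80%.

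**Figure D1:**
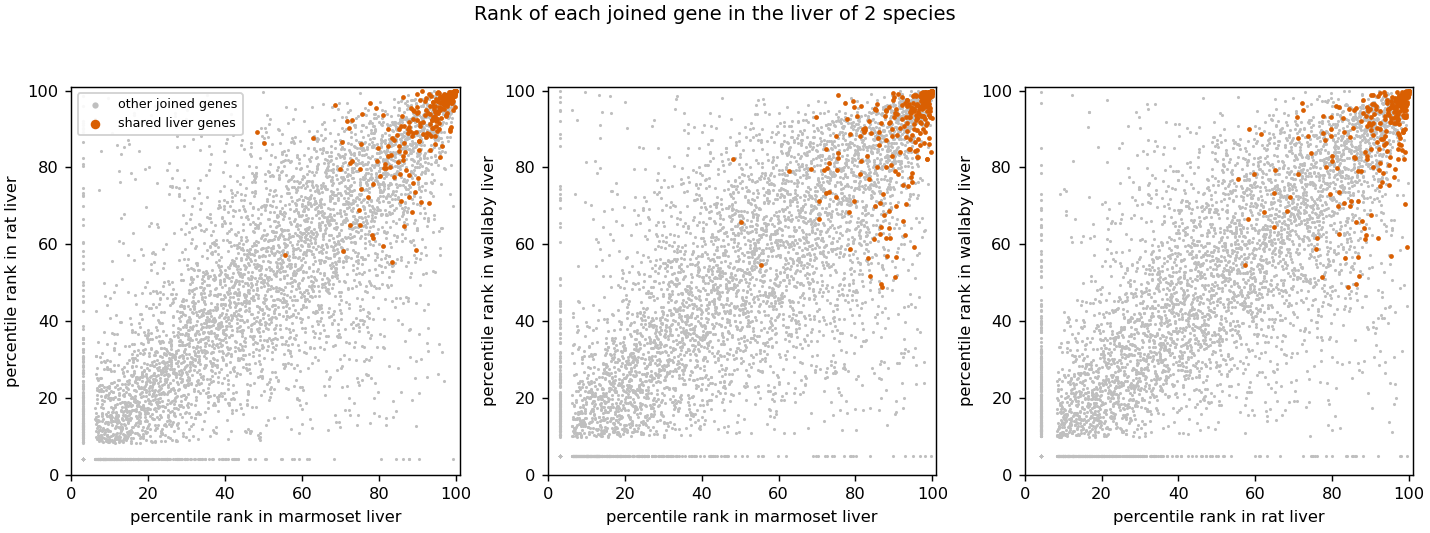
Percentile rank of each of the 5252 joined genes in the liver of 1 species (x axis) against that in another (y axis), for the 3 pairs; orange points are the 256 shared liver genes. Shared genes lie mostly in the upper right corner (184 of 256 at or above percentile 80 in all 3), and the lines of points at the left and lower edges are genes listed at 0.

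Which genes belong to liver rather than to other organs was asked within each table. In the marmoset and the rat, liver was set against the mean of heart and kidney (2 libraries each) with limma, with the animal as a block. A call needed an adjusted p (Benjamini-Hochberg) below 0.05 together with a log2 difference of at least 1 on the log2(FPKM + 1) scale, which understates the change of low genes. In the marmoset 2504 of 13967 genes were called higher in liver (17.9%) and 2003 lower (14.3%). In the rat 2337 of 13128 were higher (17.8%) and 2344 lower (17.9%). Without the animal block the marmoset counts were 1288 and 1206. The wallaby has 1 liver and 1 testis library and no test is possible. There a gene counted as past the fold when liver lay at least 2 log2 units above testis with at least 5 FPKM, which held for 3229 of 13892 genes (23.2%). Over the joined genes the median of liver minus testis was 0.40 log2 in the wallaby, -0.06 in the marmoset and -0.07 in the rat, so wallaby differences from testis are read against a shift of that size.

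Among joined genes, 739 of 4267 tested were higher in marmoset liver (17.3%), 641 of 3959 in rat liver (16.2%) and 1066 of 5252 past the fold in the wallaby (20.3%). Of the 3792 tested in both marmoset and rat, 355 were higher in both, which is 52.7% of the marmoset's 673 and 58.9% of the rat's 603. Another 375 were lower in both. Opposite calls were few: 45 genes were higher in marmoset liver and lower in rat liver, and 20 the reverse. Of the 355 genes, 256 (72.1%) were also past the fold in the wallaby, and these 256 (4.87% of the joined genes) are the shared liver genes. Their median percentile was 95.05 in the marmoset, 95.27 in the rat and 93.48 in the wallaby. Liver minus testis, the 1 contrast that all 3 tables hold, had a median over the shared genes of 3.94 log2 in the marmoset, 4.31 in the rat and 4.66 in the wallaby. The wallaby difference was part of the choice of these genes. The marmoset and rat liver values were also part of it, through the calls against heart and kidney. These medians are therefore a description. The number of shared genes rests on the pairing of tissues by animal: 181 of them remained without the block.

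The 12 shared genes that ranked highest in their lowest species were led by secreted proteins. AHSG, which encodes the plasma glycoprotein fetuin-A, stood at 8148 and 16421 FPKM in the marmoset, 14660 and 12457 in the rat and 10774 in the wallaby. It was the highest joined gene in all 4 marmoset and rat livers. HPX, hemopexin, which carries free heme, stood at 5495 and 13382 FPKM in the marmoset, 5542 and 10267 in the rat and 5033 in the wallaby. Both genes lay far above the other organs in each table. In marmoset liver AHSG exceeded heart and kidney by 11.99 ± 0.43 log2 (SE; limma, Benjamini-Hochberg adjusted p = 6.84e-05) and HPX by 11.28 ± 0.45 (adjusted p = 8.62e-05). In rat liver the limma differences were 12.09 ± 0.37 for AHSG (adjusted p = 9.67e-06) and 11.38 ± 0.33 for HPX (adjusted p = 8.21e-06). ITIH4, an acute-phase inhibitor heavy chain, stood at 3016 and 10454 FPKM in the marmoset, 2156 and 2188 in the rat and 1448 in the wallaby. Within the marmoset the male stood above the female for ITIH4, while by rank every liver lay between percentile 99.75 and 99.94. PON1, the paraoxonase carried on high density lipoprotein, ranked at percentile 99.7, 99.9 and 99.8 in the marmoset, rat and wallaby, at 1401 and 2078 FPKM in the marmoset, 2387 and 2933 in the rat and 2396 in the wallaby. F2, prothrombin, stood at 1179 and 3013 FPKM in the marmoset, 1146 and 2456 in the rat and 846 in the wallaby, with the male above the female in both species. CLU, clusterin, an extracellular chaperone, was also present in testis. It stood at 5191 and 8308 FPKM in marmoset liver, 732 and 2072 in rat liver and 5056 in wallaby liver, and at 1303 FPKM in marmoset testis (the authors' value) and 300.0 in rat testis.

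The other members of the 12 described here work inside the cell or on its surface. The urea cycle was present with 3 genes, CPS1, ASS1 and ARG1. CPS1, which makes carbamoyl phosphate at the entry of the cycle, stood at 2484 and 2845 FPKM in the marmoset, 696 and 881 in the rat and 1038 in the wallaby. ASS1, argininosuccinate synthase, stood at 1757 and 1217 FPKM in the marmoset, 2325 and 2446 in the rat and 4176 in the wallaby. ARG1, arginase, which releases urea, stood at 1548 and 860.4 FPKM in the marmoset, 525 and 688 in the rat and 641 in the wallaby. All 3 ranked above percentile 99 in every liver. P4HB, protein disulfide isomerase of the endoplasmic reticulum, was at 923 and 1432 FPKM in the marmoset, 691 and 906 in the rat and 649 in the wallaby. CD81, a tetraspanin of the cell surface, was at 905 and 4400.3, 779 and 998, and 793 FPKM in the same order. Of these, CD81 was the gene whose call depended on the analysis: its limma adjusted p was 0.00155 in the marmoset and 0.0267 in the rat, and 0.111 and 0.0631 without the animal block. Without the female or the male rat liver its rat adjusted p was 0.116 and 0.221.

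**Figure D2:**
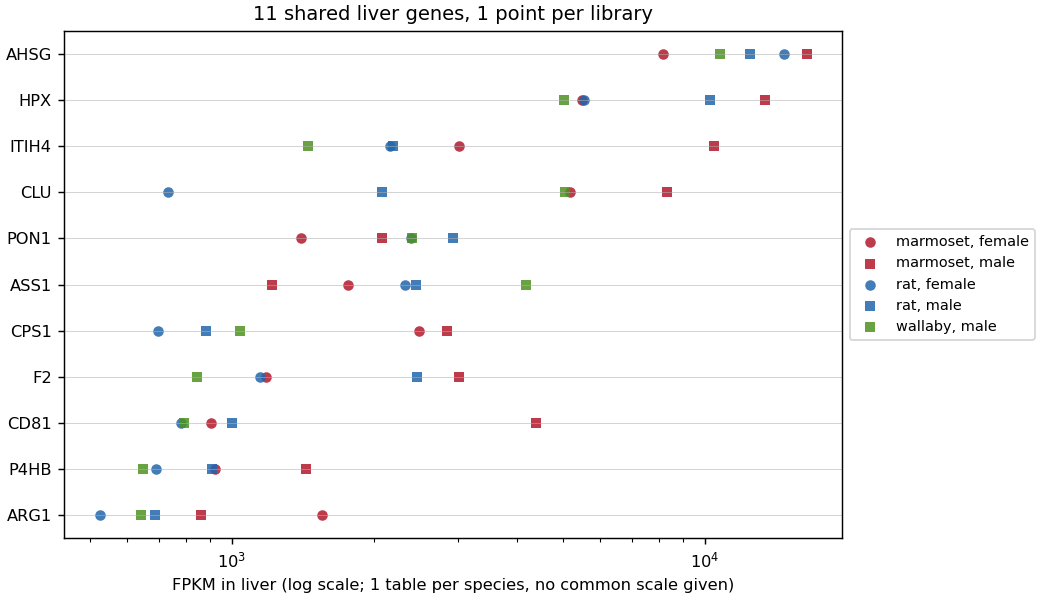
FPKM (log axis, 1 table per species, no common scale given) of 11 of the 12 shared liver genes with the highest rank in their lowest species, 1 point per liver library, coloured by species with circles for females and squares for males. AHSG lies highest, at 8148 to 16421 FPKM, and ARG1 lowest, at 525 to 1548.

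The genes were then read by the work they do, with lists of liver genes. Of 285 listed genes in 13 lists of secreted proteins, metabolic enzymes and regulators, 113 were joined and 83 were shared liver genes: 30 of 35 secreted, 44 of 64 metabolic and 9 of 14 regulatory. The remaining 173 shared genes are in none of these lists. The share of listed genes called higher is to be read against 17.3% and 16.2% of joined genes in the marmoset and the rat.

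Plasma carriers were called higher in 6 of 6 joined genes in the marmoset and in the rat, with 5 of 6 past the fold in the wallaby, and their median percentile was 99.9, 99.9 and 99.5. The exception was AFM, afamin, a vitamin E-binding plasma protein. It stood at 1375 and 730 FPKM in the marmoset and 483 and 1401 in the rat, but was listed at 0 in the wallaby liver. Apolipoproteins and lipoprotein assembly genes were higher in 7 of 7 in both species and past the fold in 7 of 7 in the wallaby. APOB, the backbone protein of very low density lipoprotein, stood at 1207 and 839 FPKM in the marmoset, 284 and 352 in the rat and 766 in the wallaby.

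Coagulation genes were higher in 9 of 10 in the marmoset, 10 of 10 in the rat and past the fold in 10 of 10 in the wallaby. The gene not called in the marmoset was FGA, the fibrinogen alpha chain, at 5338 FPKM in the female and listed at 0 in the male, while the rat stood at 1718 and 2386 and the wallaby at 14246. F11, coagulation factor XI, ranked at percentile 94.5 and 96.1 in the marmoset and rat and 77.4 in the wallaby, where it stood at 20.4 FPKM. Complement genes were higher in 6 of 6 in both species and past the fold in 5 of 6 in the wallaby. C9, the pore-forming component, was at 532 and 797 FPKM in the marmoset, 407 and 433 in the rat and 953 in the wallaby. MASP1, a protease of the lectin pathway, was the exception, at 64.8 and 37.6 FPKM in the marmoset, 31.7 and 32.8 in the rat and 1.25 in the wallaby.

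In the hormone axis list, 5 of 6 genes tested were higher in the marmoset and 4 of 5 in the rat, and 6 of 6 were past the fold in the wallaby. HGFAC, the activator of hepatocyte growth factor, stood at 325 and 2475 FPKM in the marmoset, 215 and 267 in the rat and 94.8 in the wallaby. Within the marmoset, the male stood far above the female. INSR, the insulin receptor, differed little from heart and kidney: its limma log2 difference was -0.28 ± 0.21 in the marmoset (adjusted p = 0.318) and 0.16 ± 0.18 in the rat (adjusted p = 0.468).

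All 4 joined urea cycle genes were shared, and 14 of 15 genes of amino acid breakdown were. TAT, tyrosine aminotransferase, stood at 2712 and 2062 FPKM in the marmoset, 515 and 392 in the rat and 1688 in the wallaby, and the limma difference from heart and kidney was 10.19 ± 0.41 log2 in the marmoset (adjusted p = 8.98e-05) and 8.70 ± 0.20 in the rat (adjusted p = 5.26e-06). The gene outside the shared set was AASS, the first enzyme of lysine breakdown. It stood at 93.8 and 134 FPKM in the rat (percentile 96.9), but at 11.1 and 9.16 in the marmoset (69.6) and 15.9 in the wallaby (72.9). SLC25A13, the aspartate-glutamate carrier that feeds the urea cycle, had the lowest rank of the 4 urea cycle genes in each species, from percentile 97.5 in the marmoset to 93.3 in the wallaby.

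Genes of glucose handling were higher in 8 of 8 in the marmoset and 7 of 8 in the rat, with 7 of 8 past the fold in the wallaby. PCK2, the mitochondrial form of the enzyme that commits carbon to glucose synthesis, was the gene not called in the rat. It stood at 470 and 760 FPKM in the marmoset and 259 in the wallaby but at 5.93 and 7.88 in the rat, where liver did not pass the test against heart and kidney (limma log2 difference 0.19 ± 0.19, adjusted p = 0.414). The marmoset difference was 4.29 ± 0.28 (adjusted p = 3.60e-04).

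Bile acid and bile transport genes were higher in 11 of 11 in both species and past the fold in 10 of 11 in the wallaby. ACOX2, which shortens bile acid precursors in the peroxisome, stood at 266 and 869 FPKM in the marmoset, 317 and 676 in the rat and 282 in the wallaby. SLC10A1, the main importer of bile salts from the blood, stood at 94.9 and 82.6 FPKM in the marmoset, 649 and 1313 in the rat and 405 in the wallaby. Its lowest percentile in any species was 95.3. ABCB11, the bile salt export pump, ranked at 88.3 and 95.4 in the marmoset and rat but at 56.8 in the wallaby, where it stood at 7.55 FPKM. SLCO2B1, an importer of organic anions, was lower still there, at 0.51 FPKM against 165 and 222 in the marmoset and 62.3 and 59.6 in the rat.

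Lipid genes were shared least among the metabolic lists with more than 10 joined genes. In the marmoset 14 of 17 were higher and in the rat 14 of 17, but 8 of 17 were past the fold in the wallaby and 6 were shared. The wallaby count is against testis, beside 20.3% of joined genes, and the other counts are against heart and kidney. By rank in liver, 13 of the 17 were at or above percentile 80 in the wallaby, and 16 in the marmoset and in the rat. The median percentile was 96.8 and 97.4 in the marmoset and rat and 90.3 in the wallaby. BDH1, the ketone body enzyme that makes 3-hydroxybutyrate, was at 64.6 and 44.3 FPKM in the marmoset and 136 and 180 in the rat, and listed at 0 in wallaby liver, though at 106 FPKM in wallaby testis. SQLE, an enzyme of cholesterol synthesis, stood at percentile 94.8 and 95.1 in the marmoset and rat and 54.8 in the wallaby. ACACA and ACACB, the acetyl-CoA carboxylases that start fatty acid synthesis or restrain its burning, ranked in the order marmoset, rat, wallaby: 79.0, 68.0 and 45.5 for ACACA, and 97.2, 84.0 and 66.8 for ACACB. ACADM, an enzyme of fatty acid oxidation, ran the other way, at 97.3, 99.3 and 99.8. SREBF1, the transcription factor of lipid synthesis genes, stood at 88.2 and 232 FPKM in the marmoset and 202 and 209 in the rat (97.2 and 98.2) against 9.59 in the wallaby (61.9). Apart from BDH1, the genes in this paragraph were picked from their list after their values were seen.

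For foreign compounds, 6 of 7 genes were higher in the marmoset, 4 of 7 in the rat and 6 of 7 past the fold in the wallaby. EPHX1, the microsomal epoxide hydrolase, stood at 2902 and 2835 FPKM in the marmoset, 388 and 372 in the rat and 559 in the wallaby. ADH7, an alcohol dehydrogenase, had a steep order of rank, at 1.27 and 1.25 FPKM in the marmoset, 5.67 and 16.5 in the rat and 329 in the wallaby (percentiles 33.6, 76.6 and 98.5). VNN1, the pantetheinase that recycles pantothenate, ran the other way (95.8, 63.3 and 23.8). It stood at 290 and 32.1 FPKM in the marmoset, 2.09 and 9.75 in the rat and 0.51 in the wallaby, higher than heart and kidney in the marmoset (5.96 ± 0.73, limma adjusted p = 0.00247) and lower in the rat (-2.45 ± 0.36, adjusted p = 0.00267).

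Of 14 joined hepatocyte transcription factors, 12 were higher in the marmoset and 11 in the rat with 1 lower, 11 were past the fold in the wallaby and 9 were shared. HNF4A was nearly level in rank, at 89.7 and 60.4 FPKM in the marmoset, 48.0 and 63.9 in the rat and 101 in the wallaby (percentiles 94.50, 94.44 and 95.01). XBP1, which drives the secretory machinery, stood at 91.2 and 408 FPKM in the marmoset, 130 and 480 in the rat and 223 in the wallaby, higher in the male of both species. PPARA, the nuclear receptor of fatty acid oxidation, ranked at 90.1 in the wallaby (52.5 FPKM), 79.2 in the marmoset (18.1 and 15.7 FPKM) and 51.9 in the rat (1.598 and 3.467 FPKM). It was not called against heart and kidney in either tested species (adjusted p = 0.0576 in the marmoset and 0.0710 in the rat, limma). As a reference for genes that every tissue uses, 6 nuclear oxidative phosphorylation genes ranked at medians of 97.5, 97.8 and 97.7. None was called higher in liver; 1 of 6 was lower in the marmoset and 4 of 6 in the rat, beside 14.3% and 17.9% of all genes tested. In the wallaby, however, 5 of these 6 were past the fold against testis, beside 20.3% of joined genes, as was RPL11, the 1 joined ribosomal protein gene. The wallaby contrast is against testis alone.

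**Figure D3:**
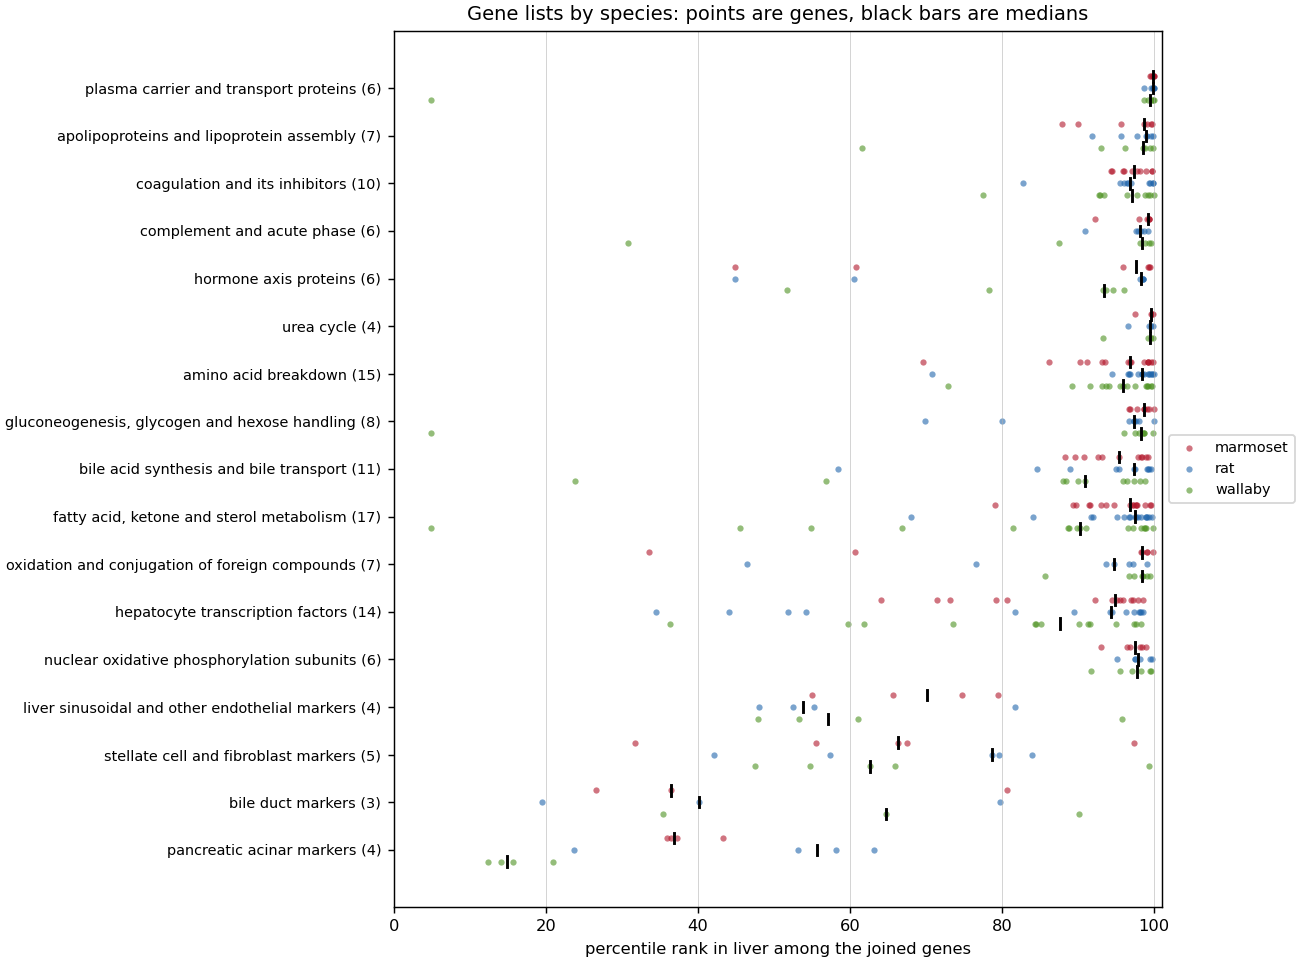
Percentile rank in liver of each joined gene of 17 lists, 1 point per gene and species, with a black bar at the median of each species; the number of joined genes stands after the list's name. In the secreted, metabolic and regulatory lists most genes lie at or above 80 in all 3 species, with single wallaby genes at 4.94 (listed at 0). Some lie low in other species, down to 33.6 for foreign compounds in the marmoset and 34.5 for transcription factors in the rat. Endothelial, stellate, bile duct and pancreatic lists spread from 12.3 to 99.3.

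Markers of the other liver cells were read next. In bulk tissue fewer cells of a type and less RNA per cell cannot be told apart. The 2 joined macrophage genes summed to 18.6 and 13.3 FPKM in the marmoset, 15.1 and 13.8 in the rat and 157 in the wallaby. CSF1R, the receptor for the macrophage growth factor, stood at 18.6 and 13.3 FPKM in the marmoset, 9.71 and 10.8 in the rat and 62.1 in the wallaby. EMR1, a macrophage surface receptor, was listed at 0 in both marmosets, at 5.42 and 2.98 FPKM in the rat and at 95.1 in the wallaby. By the names in the tables, other genes of this list could be ranked in 2 species only, among all autosomal genes with a unique symbol. CD68 and MARCO ranked higher in the rat (87.2 and 54.3) than in the wallaby (59.5 and 29.6). CD5L and C1QC ranked lower in the rat (84.4 and 87.3) than in the wallaby (96.1 and 97.2). Between marmoset and rat, CD163 ranked higher in the marmoset (77.4 against 57.6) and CLEC4F higher in the rat (93.4 against 27.1). The macrophage list was thus split. Over the 5 joined stellate and fibroblast genes the sum was 163 and 188 FPKM in the marmoset, 43.6 and 47.1 in the rat and 702 in the wallaby. Most of that sum is DCN, decorin, a matrix proteoglycan, at 140 and 161 FPKM, 8.40 and 17.3, and 669 in that order. PDGFRB, the receptor of perivascular cells, went the other way, at 7.15 and 11.1 FPKM in the marmoset, 12.1 and 10.4 in the rat and 4.65 in the wallaby. The wallaby was thus not higher for the whole list. The 4 endothelial genes summed to 48.5 and 40.1, 22.9 and 20.0, and 142 FPKM. OIT3, a gene of sinusoidal endothelium, made most of the wallaby's sum, at 122 FPKM against 19.0 and 15.3 in the marmoset and 14.4 and 13.6 in the rat. CDH5, the cadherin of all vessel lining, stood at 13.0 and 13.4 FPKM in the marmoset, 2.48 and 2.50 in the rat and 6.37 in the wallaby. The median percentile of the joined endothelial genes was 70.2 in the marmoset, 53.9 in the rat and 57.2 in the wallaby. Outside the joined set, KDR ranked at 73.2 in the rat and 45.4 in the wallaby, and STAB1 at 66.4 and 69.0. The endothelial list was thus not higher as a whole in the wallaby.

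The 3 bile duct genes summed to 22.3 and 19.3 FPKM in the marmoset, 12.7 and 14.3 in the rat and 66.1 in the wallaby. KRT19, the keratin of duct cells, stood at 0.76 and 3.09 FPKM in the marmoset, 0.74 and 1.55 in the rat and 11.0 in the wallaby. EPCAM, a duct gene outside the joined set, went the other way. Among all autosomal genes with a unique symbol it ranked at 73.9 in the rat and 23.7 in the wallaby. SLC4A1, the anion exchanger of red cells and the 1 joined erythroid gene, was at most 3.94 FPKM in any liver. Of the 4 joined pancreatic genes, CPA1, a digestive carboxypeptidase, stood at 11.8 FPKM in the female rat and at 0 in the male. The 4 summed to 43.4 FPKM in that female against 4.83 in the male rat, 6.01 and 10.3 in the marmosets and 0.599 in the wallaby. What part pancreatic RNA plays in the values of the female rat was not tested. No lymphocyte gene was joined. CD3D, of the T cell receptor complex, stood at 33.4 FPKM in the wallaby and at 0.48 and 0 in the rat.

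A second question was which genes set 1 species apart. A gene counted as high in a species when every liver library there was at or above percentile 80, and low when every library was below percentile 40. In the joined genes 73 (1.39%) were high in 1 species and low in the other 2, or the reverse. These genes were chosen on their liver values, so the values below are a description. High in 1 species were 13 genes in the marmoset, 11 in the rat and 11 in the wallaby. Low in 1 species were 17 in the marmoset, 6 in the rat and 15 in the wallaby. Of these low genes, 6, 1 and 4 were listed at 0 in every liver of that species. Just inside the limits stood NPC1L1, the intestinal and hepatic cholesterol importer, with its lowest marmoset rank at 80.1 and its highest rank elsewhere at 37.2, and just outside stood CSF3R at 82.4 and 41.1. The number depends on the limits, with 16 genes at percentiles 90 and 30 and 238 at 70 and 50.

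**Figure D4:**
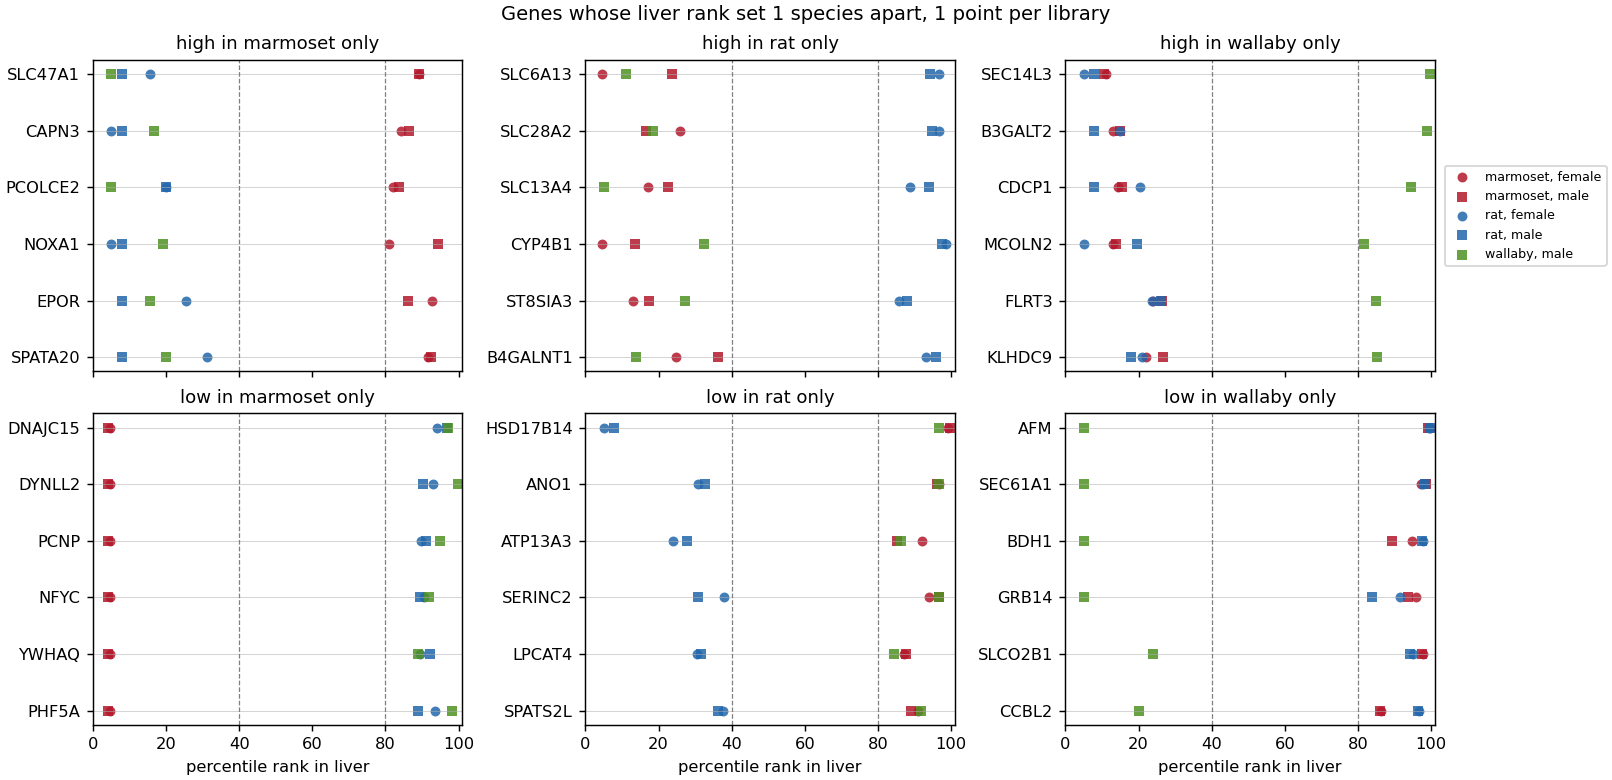
Percentile rank in each liver library of the 6 genes with the widest gap in each of the 6 patterns, coloured by species with circles for females and squares for males; dashed lines mark percentiles 40 and 80, which define low and high. The 6 genes low in the marmoset lie at 4.19 to 4.62 there because they are listed at 0.

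High in the marmoset with the widest gap was SLC47A1, which extrudes organic cations into bile and urine. It stood at 30.5 and 43.8 FPKM in the marmoset, 0.06 and 0 in the rat and 0 in the wallaby. Kidney held the gene in both species, at 84.7 and 154 FPKM in the marmoset and 94.6 and 151 in the rat. CAPN3, a calcium-dependent protease known from muscle, stood at 20.6 and 34.2 FPKM in marmoset liver, at 0 in both rats and at 0.16 in the wallaby. Marmoset heart held 1.28 and 1.61 FPKM of it. PCOLCE2, an enhancer of procollagen processing, stood at 18.4 and 26.7, 0.11 and 0.06, and 0 FPKM. EPOR, the erythropoietin receptor, stood at 46.1 and 33.1 FPKM in the marmoset, 0.23 and 0 in the rat and 0.13 in the wallaby. NOXA1, an activator of NADPH oxidase, had 17.0 and 89.8 FPKM in the marmoset and at most 0.24 elsewhere, and SPATA20 had 40.3 and 64.8 against at most 0.46. SPATA20 was not a liver gene in the marmoset, since its heart stood at 27.4 and 87.1 FPKM. Of the 13 genes, 12 were called higher than heart and kidney in marmoset liver, and the 4 tested in the rat were called lower. The rule used these liver values, so nothing is read from the counts.

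Among the genes low in the marmoset, the 6 with the widest gap were DNAJC15, a mitochondrial co-chaperone, DYNLL2, a dynein light chain, PCNP, NFYC, a subunit of the CCAAT-binding factor, YWHAQ, a phosphoserine-binding adaptor, and PHF5A, of a splicing complex. All 6 were listed at 0 in both marmoset livers. In the rat they stood between 24.7 and 137 FPKM and in the wallaby between 45.7 and 2676. Marmoset heart was at 0 in both libraries for 5 of them, and PCNP was at 0 and 0.12. Kidney was at most 0.145 FPKM for 5 of them, and PHF5A was at 1.17 and 5.66. Marmoset testis (the authors' value) stood at 4.46 FPKM for DNAJC15 and 4.096 for PCNP and at most 0.329 for the other 4. GATM, which makes the creatine precursor, was a different case, with 0.06 and 0.47 FPKM in marmoset liver but 63.8 and 199 in marmoset kidney. Rat liver held 11.7 and 13.6 FPKM of GATM, and wallaby liver held 169. GATM was named after its values were seen.

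High in the rat with the widest gap was SLC6A13, a transporter of GABA and taurine. It stood at 89.5 and 62.4 FPKM in rat liver, 0 and 0.36 in marmoset liver and 0.03 in wallaby liver. Marmoset kidney held 59.0 and 82.0 FPKM of it, and rat kidney 9.42 and 13.7. SLC28A2, a purine nucleoside carrier, stood at 97.4 and 67.5 FPKM in the rat, 0.53 and 0.12 in the marmoset and 0.21 in the wallaby. SLC13A4, a sulfate carrier, stood at 23.4 and 56.7, 0.13 and 0.30, and 0 FPKM in the same order. CYP4B1, a cytochrome P450, was at 226 and 173 FPKM in rat liver and at 240.0 and 85.1 in rat kidney. ST8SIA3 and B4GALNT1, which build sialylated glycolipids and glycans, stood at 17.9 and 25.5 and at 41.5 and 87.0 FPKM in rat liver, against at most 1.43 in the marmoset and 0.79 in the wallaby.

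Low in the rat with the widest gap was HSD17B14, a hydroxysteroid dehydrogenase. It stood at 434 and 1583 FPKM in the marmoset and 162 in the wallaby and was listed at 0 in both rat livers. Rat heart and kidney were at most 0.12 FPKM, so its low value was not confined to liver. ANO1, a calcium-activated chloride channel, stood at 106 and 130.03 FPKM in the marmoset and 154 in the wallaby against 0.44 and 0.47 in the rat. SERINC2 stood at 54.9 and 154 FPKM in the marmoset and 153 in the wallaby against 0.91 and 0.34 in the rat, whose heart held 14.8 and 10.1. ATP13A3, a P-type ATPase of endosomes, was at most 0.625 FPKM in any rat tissue used and 41.7 and 30.6 in marmoset liver. LPCAT4, a phospholipid acyltransferase, and SPATS2L completed the group of 6.

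High in the wallaby was SEC14L3, a member of the Sec14 family of lipid-binding proteins, at 976 FPKM. It was at 0.03 in both marmosets and at 0 in both rats. B3GALT2, a galactosyltransferase, stood at 464 FPKM in the wallaby, 0.05 and 0.09 in the marmoset and 0.05 and 0 in the rat. CDCP1, a transmembrane substrate of Src kinases, was at 93.4 FPKM against at most 0.11 in the other species. MCOLN2, FLRT3 and KLHDC9 stood at 26.5, 33.9 and 34.3 FPKM in the wallaby. Testis held 0.22 FPKM of SEC14L3 and 3.69 of B3GALT2 in the wallaby, but 37.9 of KLHDC9.

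Low in the wallaby, besides AFM, BDH1 and SLCO2B1, were SEC61A1, GRB14 and CCBL2. SEC61A1, the channel through which secreted proteins enter the endoplasmic reticulum, stood at 139 and 422 FPKM in the marmoset, 133 and 238 in the rat and 0 in the wallaby. It was at 0.03 in wallaby testis as well. GRB14, an adaptor of the insulin receptor, stood at 84.9 and 79.95 FPKM in the marmoset, 30.7 and 17.7 in the rat and 0 in the wallaby. CCBL2, a kynurenine aminotransferase, stood at 24.0 and 32.7, 97.5 and 112, and 0.28 FPKM, while wallaby testis held 24.1. Of the 15 genes, 10 were called higher in liver in the marmoset and 12 in the rat, again among genes chosen for high liver values in both.

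Genes absent from 1 table by name could be compared in the other 2, and 169 listed genes were. Here the ranks were taken among all autosomal genes with a unique symbol. LEAP2, a liver-made antimicrobial peptide and ghrelin antagonist, was listed at 0 in both rats and at 181 FPKM in the wallaby. CES1, the major liver carboxylesterase, stood at 782 and 543 FPKM in the marmoset and 1.22 in the wallaby, and CES2 at 0.19 and 0.15 in the rat and 173 in the wallaby. Carboxylesterases form a gene family with close copies, so their values are uncertain. IGF2, the fetal growth factor, stood at 0.40 and 0.03 FPKM in the rat and 510.3 in the wallaby. The marmoset entry for IGF2, named from a separate name table, stood at 178 and 193. CLEC4F, a Kupffer cell lectin, stood at 59.9 and 93.1 FPKM in the rat and 0.24 and 0.53 in the marmoset. NDUFA10 and EPCAM were likewise at least 50 percentile points apart, at 52.6 and 89.3 and at 6.44 and 14.9 FPKM in the rat against 3.05 and 0.55 in the wallaby. GULO and UOX, the last enzyme of vitamin C synthesis and urate oxidase, stood at 497 and 869 and at 1113 and 1885 FPKM in rat liver, and were not analysed in the other species here.

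With marmoset names filled in from a separate table of Ensembl names, 8728 genes were joined and 95 fell in the 6 patterns. Of the 36 genes with the widest gaps above, 31 were among them. The additions, chosen after their values were seen, included AQP8, a water channel of liver and gut, at 127 and 255 FPKM in the rat, 0.09 and 0 in the marmoset and 0 in the wallaby. CYP17A1, which makes androgen precursors, stood at 193 and 166 FPKM in rat liver, 0.80 and 0.92 in the marmoset and 0 in the wallaby. UCP3, a mitochondrial carrier, stood at 48.5 and 60.1 FPKM in the marmoset and at 0 in the other 3 livers. SLC51A, a subunit of a bile salt exporter, stood at 93.6 and 35.3 FPKM in the marmoset and 129 in the wallaby and at 0 in both rats. MPC1, of the mitochondrial pyruvate carrier, stood at 446 and 823, 338 and 890.2, and 0.63 FPKM in the marmoset, the rat and the wallaby.

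OAS2, SIGLEC1 and EPSTI1, which respond to interferon, stood among the 13 genes high in the marmoset, and a list of 36 interferon-stimulated genes was added after that was seen. Of these, 12 were joined, with median percentiles of 85.4 in the marmoset, 50.6 in the rat and 39.1 in the wallaby. OAS2, an antiviral RNA sensor, stood at 79.0 and 224 FPKM in the marmoset, 0.21 and 0.15 in the rat and 2.26 in the wallaby. SIGLEC1, a macrophage lectin, stood at 37.6 and 67.3, 0.72 and 0.52, and 0.18 FPKM. In FPKM the female marmoset was below the male in all 12 genes, and in 8 of them the female also lay above every rat and wallaby liver. The second count sets FPKM side by side across tables that have no common scale. By rank, the median percentile was 83.4 in the female and 86.8 in the male marmoset. Within the marmoset 10 of 12 were called higher in liver than in heart and kidney, beside 17.3% of joined genes, and in the rat 3 of 7 tested were higher and 1 lower. OAS2, SIGLEC1 and EPSTI1 were chosen for their liver ranks and are part of these counts. Without them, in a recount added after the data were seen, 7 of 9 were called higher in the marmoset. The median percentiles were then 82.8, 63.4 and 43.5. In FPKM, again without a common scale, the female marmoset lay above every rat and wallaby liver in 5 of 9. STAT2, which carries the interferon signal, broke the order, at percentile 90.6, 91.4 and 95.3. Outside the joined set, MX1 stood at 149 and 681 FPKM in the marmoset and 0.74 and 0.29 in the rat, ISG15 at 158 and 2755 against 7.63 and 11.0, and IFIT1 at 159 and 509 against 0 and 0.01. IFI27 went the other way, at 0.67 and 13.6 FPKM in the marmoset and 491 and 543 in the rat.

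**Figure D5:**
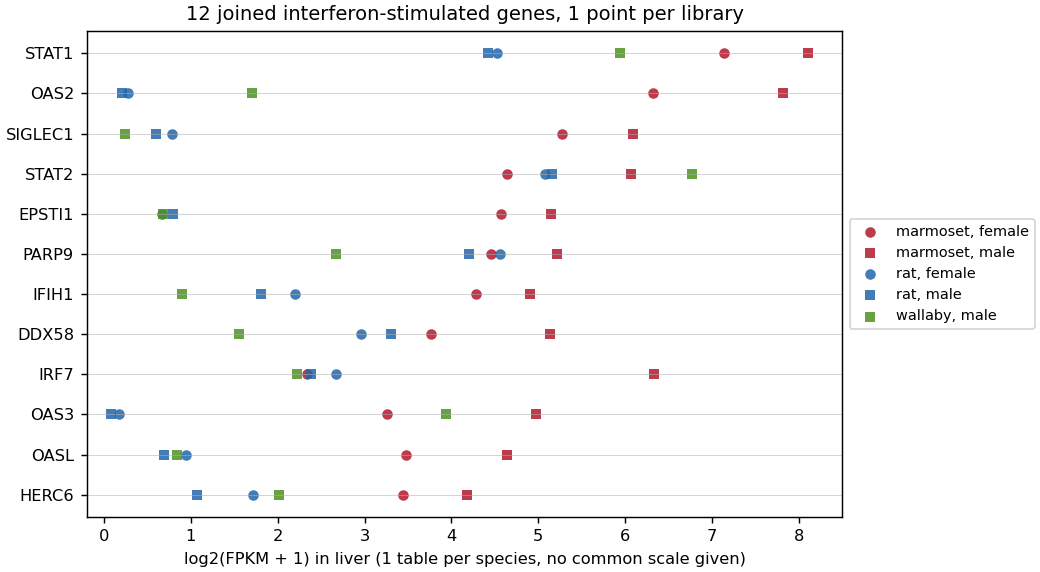
log2(FPKM + 1) in liver of the 12 joined interferon-stimulated genes (1 table per species, no common scale given). Each point is 1 library, coloured by species with circles for females and squares for males. The male marmoset is the highest point in 11 of the 12 genes, and STAT2 is the exception, where the wallaby is highest.

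SLC3A1 and SLC22A2, transporters of kidney tubules, stood among the genes high in the wallaby, at 107 and 26.3 FPKM, and a list of 23 kidney genes was likewise added after its values were seen. Of these, 8 were joined. Kidney is 1 side of the comparison in the marmoset and rat, so no count of calls is given for them. MIOX, the inositol oxygenase of the proximal tubule, stood at 243 FPKM in wallaby liver, 0.64 and 2.01 in marmoset liver and 9.38 and 2.85 in rat liver. The list was split in the wallaby, with MIOX, SLC3A1 and SLC22A2 high and the other 5 at most 0.22 FPKM: SLC34A1, the phosphate carrier, was at 0.07 FPKM, CUBN at 0.15, CDH16 at 0.22 and SLC7A9, the partner of SLC3A1, at 0.10. In the kidneys of the female and male rat, MIOX stood at 800.1 and 3734 FPKM, SLC34A1 at 389 and 1759 and CUBN at 79.4 and 18.7. What part kidney RNA plays in the wallaby values was not tested. The 8 genes summed to 377 FPKM in the wallaby, 6.78 and 11.1 in the marmoset and 10.8 and 3.35 in the rat. MIOX, SLC3A1 and SLC22A2 made almost all of the wallaby sum, and SLC3A1 and SLC22A2 had prompted the list. NPHS1, a podocyte gene of the same list outside the joined set, stood at 202 and 1373 FPKM in marmoset liver and at 0.01 and 0 in rat liver.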

How the data were processed

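Polyadenylated RNA was sequenced as single-end reads, per the labels' protocols, which state strand-specific libraries for the marmoset and do not name the rat or wallaby. The deposited values are FPKM by the authors, in 1 table per species, made with Cufflinks 2.0.0 and TopHat 1.4.0, per the submitters' processing notes. Genome builds, annotations and the normalization method: none is given in the sources used here. Without counts the depth and its precision are unknown. Columns were used only where their name matched 1 sample or group; 12 per-sample columns were left out, 4 of them with values above 0, and columns named for brain fit more than 1 tissue. The marmoset testis column is the authors' value for the group. The members, lists and tests were chosen with earlier results of these data known, and the interferon and kidney lists after these values were seen.

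Liver was compared with the mean of heart and kidney on log2(FPKM + 1) with limma 3.58.1 (mean-variance trend) in R 4.3.3, keeping genes that reached 1 FPKM in 2 or more libraries. The animal was a block, since same-sex libraries of a species are labelled individual 1. Deviations of the same animal from the tissue means correlated between tissues at 0.614 to 0.721 in the marmoset and 0.443 to 0.516 in the rat. The block took out the average difference between the 1 female and 1 male of a species. The p-values therefore measure how far the tissue differences varied between these animals, not the spread between them. On simulated data for the marmoset comparison (13967 genes), 65% of genes changed by 2 log2 and 78% of those changed by 4 were recovered, with 0.0436% of the others called. For the rat comparison (13128 genes) these shares were 62%, 81% and 0.0155%. The simulated noise was independent around 1 mean per gene, with no animal effect and no other tissue difference. Only 100 genes were changed by each amount, far fewer than were called in the real data. The shares therefore need not hold for the real data.

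Named genes were the 12 shared liver genes with the highest lowest percentile, the 6 with the widest gap in each of the 6 patterns, the highest and the widest-ranging joined gene of each list, and listed genes at least 50 points apart in 2 tables. Others named were picked after their values were seen. Values of some genes that this rule names are not reported here.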

Additional observations from a re-analysis of the deposited data

Results flagged for a closer look

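In 11 of the 36 genes named for setting 1 species apart, the liver value minus the mean of heart and kidney (log2) had 1 sign in both animals of the marmoset and the opposite sign in both rats. In 4 of them every animal was at least 1 log2 from 0. The difference between the species was not tested, and all 11 genes were chosen for a liver rank that set 1 species apart. The sign is that of liver against the mean of both organs, and a single organ can differ from it: SLC47A1 was higher in marmoset kidney than in marmoset liver.

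For SLC47A1 the value was 1.61 and 1.63 log2 in the female and male marmoset and -3.32 and -3.81 in the rats, so that marmoset minus rat was 5.18. For PCOLCE2 it was 2.55 and 2.24 in the marmosets and -1.91 and -2.08 in the rats, a gap of 4.39. SERINC2 stood at 1.25 and 1.66 in the marmosets and -2.46 and -2.66 in the rats, a gap of 4.02. SLC6A13 had the opposite direction, at -2.95 and -2.85 in the marmosets and 4.78 and 3.93 in the rats, so that marmoset minus rat was -7.25. These are the 4 genes at least 1 log2 from 0 in every animal.

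SLC28A2 also had the opposite direction, at -0.96 and -1.38 in the marmosets and 4.17 and 3.90 in the rats, a marmoset minus rat value of -5.20. LPCAT4 stood at 1.13 and 0.96 against -1.37 and -1.58, a gap of 2.52. SPATS2L stood at 0.68 and 0.64 against -0.75 and -0.70, a gap of 1.39. In the other 4 genes the rats were close to 0 and set the sign by little. The gap was 5.32 for ANO1 (rats at -0.36 and -0.12), 4.66 for HSD17B14 (-0.08 and -0.04), 2.92 for CAPN3 (-0.09 and -0.12) and 1.77 for NOXA1 (-0.06 and -0.03).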

How the results depend on the processing

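Among the headline results, 80 alternative values stayed the same and 40 moved. Among the other results, 507 stayed the same, 217 moved and 5 became weaker. None was marked as changed in direction, but counts and median percentiles have no direction to change. The named genes were chosen for wide gaps or high ranks, so little is read from the absence of a change in direction. Without the replicate block the marmoset counts were 1288 higher and 1206 lower, the rat counts stayed within 1.5 times (2008 and 2125), and 181 shared genes were left, all among the 256. Filling in marmoset names, an alternative added after the data were seen for the shared genes, gave 456 of them. Leaving out 1 replicate gave Spearman's rho of 0.780 to 0.782 for marmoset and rat, 0.739 to 0.763 for marmoset and wallaby and 0.779 to 0.784 for rat and wallaby. Extended names gave 0.812 for marmoset and rat and 0.793 for rat and wallaby. Genes above 0 in every liver gave 0.749, 0.703 and 0.725 for marmoset-rat, marmoset-wallaby and rat-wallaby. Without a liver replicate of the marmoset and the rat, 171 to 181 shared genes were called, of which 160 to 172 were among the 256.

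The species patterns moved more. Leaving out 1 replicate, which eases a rule that asks for every library, gave 24 to 31 genes high in the marmoset, 20 to 26 low in it, 17 to 20 high and 8 to 10 low in the rat, and 109 to 117 in all. Ranks among all genes of the table gave 8 high in the marmoset, 3 low in the rat and 6 high in the wallaby. Extended names gave 11 low in the rat, 18 high and 25 low in the wallaby. Only genes above 0 in every liver gave 6 low in the marmoset. Percentiles 90 and 30 gave 0 high and 5 low in the marmoset, 2 and 1 in the rat, 3 and 5 in the wallaby and 16 in all. Percentiles 70 and 50 gave 46 and 35, 34 and 21, 50 and 52, and 238 in all. Of the 36 named pattern genes, 36 remained without either replicate, 31 with extended names, 29 with ranks over the table, 12 with genes above 0 in every liver and 11 at percentiles 90 and 30. Beyond what the construction of each alternative fixes, the cause was not tested.

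Among the 12 shared genes, 209 of 214 alternative values kept their call, and the 5 others were those of CD81. Depth is unknown, so counting error could not be set beside any value. The wallaby rests on 1 liver and 1 testis library, genes were paired by symbol and not by a check of orthology, and a listed 0 can be a failed estimate.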
